A study of Rattus norvegicus with 3 samples.

Results

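The comparison described here set ROS17/2.8 cells given a low dose of polyphosphate (0.01 mg/ml) against untreated ROS17/2.8 cells. ROS17/2.8 is 1 clonal rat osteosarcoma line with osteoblast-like properties, so the cells stand for that line and not for primary bone cells. All cells were grown to confluence and kept in a mineralization medium with ascorbate phosphate and β-glycerophosphate, the controls included. The low dose lasted 24 h per the series description, and no time is labelled for the control. Another array came from cells given 1 mg/ml for 24 h (the high dose), and its values are given beside the others as a description, since both doses share the control array. The series holds 3 one-colour arrays, and 2 of them, 1 per group, enter this comparison. They shared a slide with the other array, so group and slide position cannot be told apart. With 1 array a side there is no replicate, so sizes are given with no p-value, and the number of arrays limits the precision.

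The members of the comparison were 14623 genes, counting an unnamed probe as a gene of its own, of 26130 gene names on the array. They are the genes with a probe well above background on both the low-dose and the control array. Each signal was divided by the 75th percentile of its array, which read 964 at the low dose and 926 in the control, to give a scaled signal, and a log2 ratio is the low dose minus the control. The value after ± is a spot error, made from the spread between repeat spots of a probe on an array. It covers neither labelling nor culture. Genes at or above the median level, a scaled signal of 0.520, are called bright; there were 7312. Spike-in probes, which carry added RNA of known amount, read lower at the low dose by 0.14 on the log2 scale, and centring on them would move every gene up by that much. Directions below are therefore relative to the median of all genes, which lay at 0.001.

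Polyphosphate is an unbranched chain of phosphate residues that mammalian cells make and release, and bone cells can cut it to free phosphate with alkaline phosphatase. It is known in bone for binding calcium and for acting as a store of phosphate for mineral. The cell label was checked against 10 osteoblast markers. Of these, 8 were measured on both arrays, Bglap (osteocalcin) was dim, and the osteocyte-linked genes Dmp1 and Phex were not well above background. The summed scaled signal of the 10 markers was 29.3 in the control, 29.6 at the low dose, and 29.6 with the high dose. Among 7 other marker lists, the 8 macrophage and osteoclast markers summed to 0.561 in the control and 0.540 at the low dose, with 5 measured and Ptprc, Adgre1 and Calcr not well above background. Of the dim measured ones, Cd68 stood at 0.39 and Csf1r at -0.37 on the log2 scale. Skeletal muscle markers summed to 2.17 and 2.07, of which the creatine kinase gene Ckm made up 2.03 and 1.93, and neuron markers to 1.39 and 1.35. The 7 chondrocyte markers, 3 of them measured, summed to 0.686 and 0.858. Among them the cartilage transcription factor gene Sox9 read 0.290 and 0.268 in the control, 0.419 and 0.326 at the low dose and 0.252 and 0.263 with the high dose, a low-dose log2 ratio of 0.41 ± 0.09. The cartilage link protein gene Hapln1 stood at 0.23 ± 0.14 and Comp at 0.08. The chondrocyte markers Col2a1, Acan, Matn1 and Matn3 were not well above background on either array.

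The low-dose and control arrays differed little. Over the 7312 bright genes the log2 ratio had an SD of 0.09 against a root mean square spot error of 0.07. A ratio of at least 1.2-fold was found in 53 bright genes on the higher side (0.725%) and in 38 on the lower side (0.52%). Over all 14623 measured genes the counts were 583 higher (3.99%) and 743 lower (5.08%), with an SD of 0.16 against a spot error of 0.15. Centred on spike-ins, 491 bright genes were higher and 10 lower, 98.0% of these calls against 58.2% without that shift, and 1942 and 284 measured genes, 87.2% against 44.0%. Only 1 bright gene, Rpph1, was 2-fold apart. Of the bright genes past 1.2-fold, 43 of the 53 higher and 32 of the 38 lower rested on a single spot per array. Among bright genes with 1 spot 3.004% passed 1.2-fold, against 0.345% with 2 to 9 spots and 0.212% with 10 or more. The plot of ratio against level shows this narrow band and the few bright genes outside it.

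**Figure D1:**
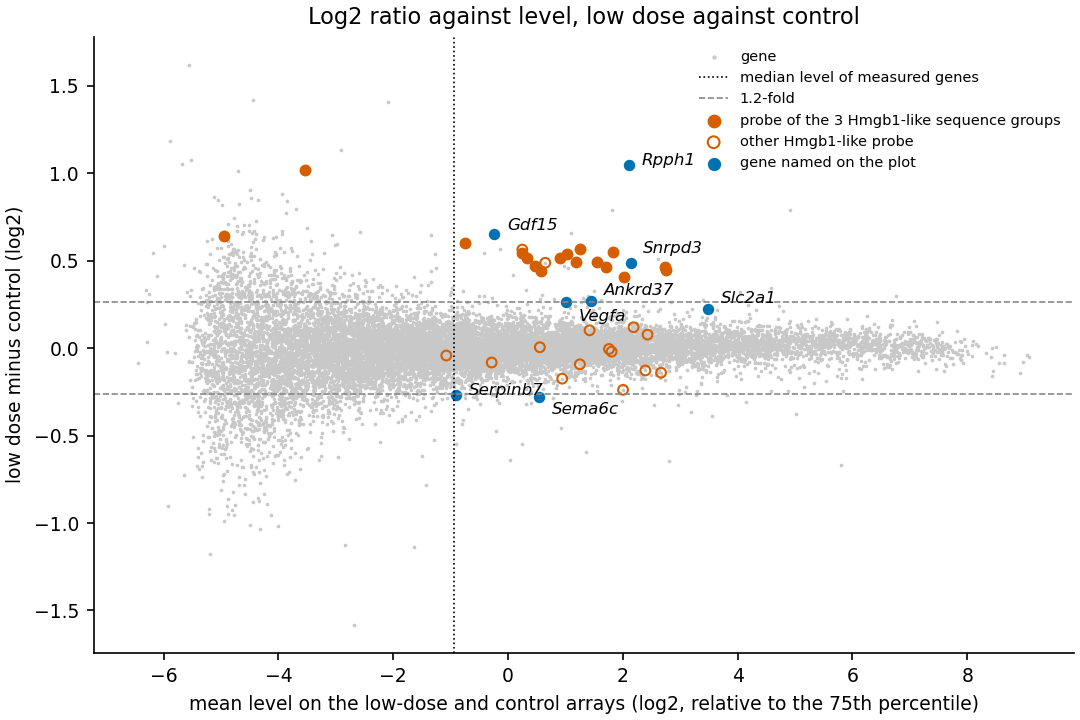
Log2 ratio of low dose to control (vertical axis) against the mean log2 level on both arrays relative to the 75th percentile (horizontal axis), 1 grey point per measured gene. The dashed lines mark 1.2-fold and the dotted line the median level; filled orange points are the 17 Hmgb1-like probes of 3 sequence groups, all past 1.2-fold, open orange points are the other 15 Hmgb1-like probes, and blue points are named genes.

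The most coherent difference at the low dose came from probes like Hmgb1, the gene of an abundant chromatin protein with HMG boxes that bends DNA in the nucleus and, once released, acts as an alarm signal. Rat genomes carry many processed copies of Hmgb1, so several probes can bind the same transcripts. The set was taken, after the values were seen, as the probes annotated as Hmgb1 plus all probes linked to them by a shared run of 16 bases or by lying within 1000 bases on the same strand. It holds 32 measured probes of 29 gene names. The sequences below are examples with long shared runs; 3 other members of the first group share only 8, 8 and 10 bases with its reference probe and are linked through other members. In the first group the capitals mark the longest run shared with the Hmgb1 probe at position 486 of its transcript:

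Hmgb1 (A_64_P299671): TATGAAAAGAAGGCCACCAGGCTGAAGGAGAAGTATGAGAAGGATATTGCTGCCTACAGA
A_64_P040930: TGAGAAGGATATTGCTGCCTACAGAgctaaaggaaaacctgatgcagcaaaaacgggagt
A_64_P017946: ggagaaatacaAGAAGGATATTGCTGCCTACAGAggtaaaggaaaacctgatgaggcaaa
RGD1565010 (A_44_P366118): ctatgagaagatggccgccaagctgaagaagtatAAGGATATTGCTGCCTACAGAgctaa

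In the second group the capitals mark the longest run shared with the probe at position 470 of Hmg1l1, an Hmgb1-like gene:

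Hmg1l1 (A_64_P299711): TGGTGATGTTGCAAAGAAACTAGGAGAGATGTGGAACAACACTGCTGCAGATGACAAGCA
ENSRNOT00000051642 (A_64_P299672): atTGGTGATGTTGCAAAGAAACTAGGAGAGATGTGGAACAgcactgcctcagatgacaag
A_64_P123549: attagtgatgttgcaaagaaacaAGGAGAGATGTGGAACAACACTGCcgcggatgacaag
A_64_P130375: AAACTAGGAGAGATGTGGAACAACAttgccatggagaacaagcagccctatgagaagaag

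Each of the 8 probes of the first group was higher at the low dose, with log2 ratios from 0.44 to 0.64 and a median of 0.53. Each of the 7 probes of the second group was higher too, from 0.41 to 1.02 with a median of 0.51. The third group, of 2 probes, the transcript ENSRNOT00000030194 and A_64_P033224, stood at 0.45 and 0.46. These 17 probes each rest on 1 spot per array, and 15 of them were bright. Their spots lay in rows 21 to 358 and columns 2 to 162 of an array of 384 rows and 164 columns. The part of spot position in these ratios was not tested.

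The other 15 Hmgb1-like probes fell apart. A_64_P017931 and A_64_P014974 stood at 0.56 and 0.49, and the remaining 13 lay between -0.24 and 0.12. No probe of the 32 lay between 0.12 and 0.41. The cut at 1.2-fold falls within this gap, with 19 probes above it and 13 below.

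Neighbouring probes of 1 place in the genome show the same split. Of the probes named Hmgb1 (rn4, plus strand), the first lies at chr16:37462642-37462701. It had a scaled signal of 2.93 in the control, 4.29 at the low dose, and 3.60 with the high dose. Its low-dose log2 ratio was 0.55 ± 0.08. The probe 180 bases downstream, at chr16:37462822-37462877, gave 3.39, 3.38 and 3.81 in the same order as means of 2 spots, a low-dose ratio of -0.005 ± 0.06. A further Hmgb1 probe 1193 bases downstream of the first gave 0.845, 0.798 and 0.932, a ratio of -0.08 ± 0.07. The upstream probe was thus past 1.2-fold at the low dose, while both downstream probes lay within 2 spot errors of 0. Whether this place is the Hmgb1 gene or a copy of it was not tested.

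Hmg1l1 on the minus strand of chromosome 1 had the same order. Its probe at chr1:228589905-228589964 gave 3.51 in the control and 4.66 at the low dose, and the probe 725 bases downstream gave 3.52 and 3.47. At chr1:16798969-16799028 A_64_P123549 stood at 0.49 ± 0.08, and A_64_P121528, 667 bases downstream, at -0.14 ± 0.08. On chromosome 2 A_64_P017931 stood at 0.56 ± 0.09 and A_64_P015859, 130 bases downstream, at 0.10 ± 0.08. In each of these 4 places the upstream probe was past 1.2-fold and the downstream ones were not. At 2 other places both probes were higher: A_64_P033224 and A_64_P017946 on chromosome 5, 186 bases apart (0.46 and 0.44), and A_64_P014974 and ENSRNOT00000035711 on chromosome 16, 183 bases apart (0.49 and 0.49). At the remaining 2 places neither probe was higher: A_64_P014296 and A_64_P017956 on chromosome 13 (-0.09 and -0.04), and XM_237105 and A_64_P042450 on chromosome 9 (0.005 and -0.17).

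At the high dose the 17 probes of the 3 groups had a median of 0.21, from 0.13 to 0.45, and each was lower than at the low dose. The gene Hmgb2, which codes for a related protein, stood at 0.07 ± 0.05 at the low dose. Among 619 genes with at least 2 bright probes, Hmgb1 had the widest gap between its probes, 0.63, against a median gap of 0.07. The next were Taf15, an RNA-binding protein gene with probes at -0.04 and 0.53, and Hmg1l1 with a gap of 0.43. Of the 101 families of at least 4 measured probes that share a run of 16 bases, the first and the second Hmgb1-like group had the highest medians, 0.53 and 0.51. The next family stood at 0.15 and the lowest at -0.15. The further Hmgb1-like family of 4 probes, with a median of -0.13, ranked 100 of the 101 from the highest. Of the 53 bright genes at least 1.2-fold higher, 15 belong to the Hmgb1-like set. Which transcripts these probes measured was not tested.

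**Figure D2:**
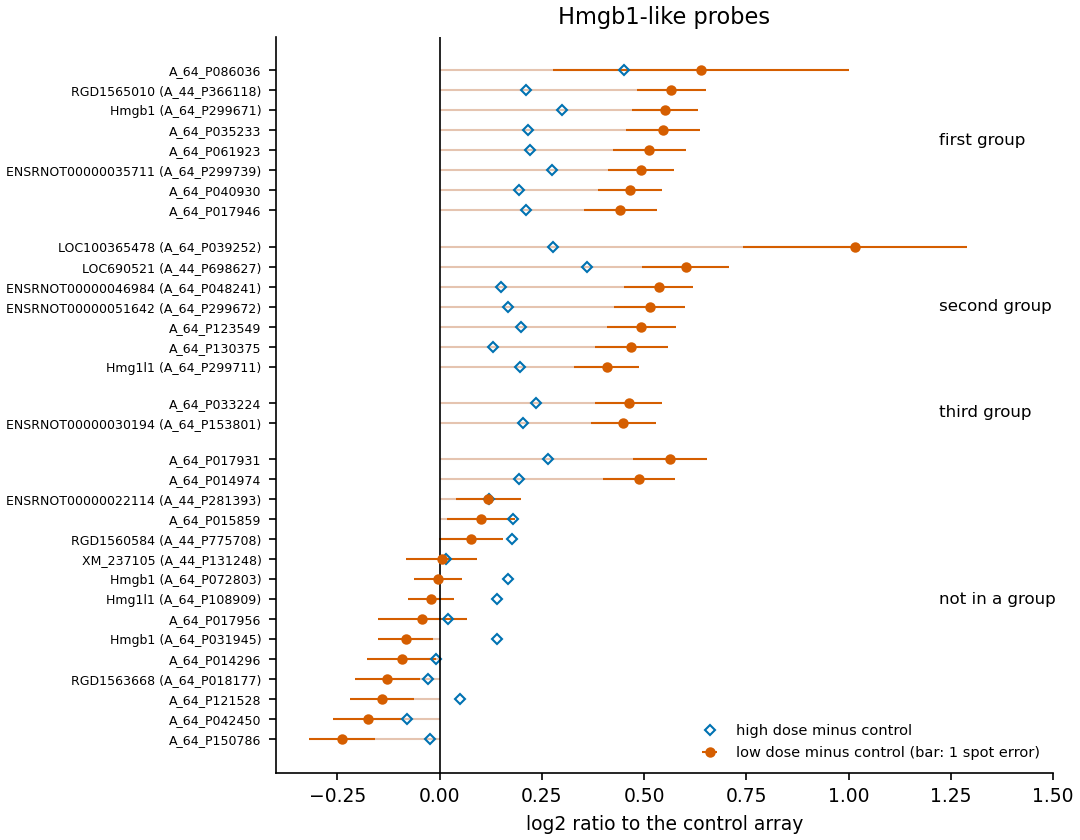
Log2 ratio to the control array (horizontal axis) of the 32 measured Hmgb1-like probes, by sequence group; orange circles are the low dose with a bar of 1 spot error and blue diamonds the high dose, on the same control array. The 17 probes of the 3 groups lie between 0.41 and 1.02 at the low dose, and 13 of the 15 others between -0.24 and 0.12. A further family of 4 probes, from -0.24 to -0.09, is plotted among those not in a group.

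Genes of glycolysis and of the wider hypoxia response, from 2 lists, lay mostly on the higher side. In this response the factor HIF, stabilised when oxygen or the enzymes that sense it run short, raises genes for glucose uptake, glycolysis, vessel growth and mitochondrial clearance. Of 41 measured members of both lists, 35 were above 0, against 50.4% of all measured genes and 54.7% of bright ones. By more than 2 spot errors, 19 were above 0 and none below, against 4.27% and 4.57% of all measured genes, dim ones included. Bright genes alone were not counted in this way. Of 27 bright members with repeat spots, 19 had every low-dose spot above every control spot and none the reverse. Over all such bright genes these shares were 18% and 14.1%. The differences were small: only 6 of the 41, Slc2a3, Aldoc, Wsb1, Ndrg1, Ankrd37 and Vegfa, were past 1.2-fold on the higher side, and Pfkfb3, from 1 dim spot, on the lower side. Aldoc, also from 1 dim spot, and Pfkfb3 changed sign, to -0.26 and 0.11, without the filter on dim probes. Slc2a3, at 0.45 ± 0.22 from 2 spots, was dim as well, and Wsb1, at 0.30 ± 0.08, rested on 1 bright spot.

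The glucose transporter gene Slc2a1 had 8 spots that read 10.0933 to 10.6996 (median of 10.4) in the control and 11.9 to 12.4 (median of 12.1) at the low dose. At the high dose they read 14.7 to 15.8. The spots of the arrays did not overlap, and the low-dose log2 ratio was 0.22 ± 0.03, with 0.56 at the high dose. Ankrd37, an ankyrin repeat gene known as a HIF target, read 2.31 to 2.63 over its control spots, 2.89 to 3.09 at the low dose, and 3.05 to 3.504 with the high dose. Its low-dose spots all lay above the control spots, with a ratio of 0.27 ± 0.03, and overlapped those of the high dose. Adm, the gene of the vasodilator adrenomedullin, read 23.01 to 24.7 in the control, 26.2 to 29.99 at the low dose, and 30.7 to 32.4 with the high dose. Its ratio at the low dose was 0.24 ± 0.02.

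Genes with fewer spots gave the same order of arrays. Ndrg1, a stress-response gene, read 10.1 and 9.03 in the control, 11.8 and 11.2 at the low dose, and 13.8 and 13.2 with the high dose. Bnip3, which codes for a mitophagy receptor, read 16.8 and 16.4, then 19.5 and 19.99, then 22.3 and 22.6. The growth factor gene Vegfa has 4 measured probes, and the brightest read 8.74 and 9.04 in the control, 10.4 and 10.4 at the low dose, and 13.1 and 12.8 with the high dose. In each of these 3 genes the spots of the arrays were apart and in the order control, low dose, high dose. The 4 Vegfa probes had ratios from 0.22 to 0.34.

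Along the glycolytic pathway the ratios were smaller. The hexokinase gene Hk2 stood at 0.15 ± 0.06, the phosphofructokinase gene Pfkp at 0.16 ± 0.05, Aldoa (aldolase) at 0.12 ± 0.05, Tpi1 (triosephosphate isomerase) at 0.13 ± 0.04 and Eno2 (enolase) at 0.18 ± 0.04. Gapdh stood at 0.03 ± 0.03, Pgk1 at 0.04 ± 0.05 and Ldha, which codes for lactate dehydrogenase, at 0.04 ± 0.05, within 2 spot errors of 0. The pyruvate kinase gene Pkm had a mean of 0.20, but this came from a dim probe that read 0.104 and 0.112 in the control and 0.148 and 0.139 at the low dose. Its bright probe read 17.9 in the control and 17.6 at the low dose. The glycolysis list as a whole had a median of 0.09 with 20 of 21 members above 0, and 0.23 at the high dose. With the brightest probe of each gene alone its median less that of all genes was 0.05.

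The other hypoxia genes had a median of 0.15, with 15 of 20 members above 0, and 0.34 at the high dose. Among those not higher, Hif1a itself, the gene of the oxygen-regulated subunit, stood at -0.16 ± 0.18. The histone demethylase gene Kdm3a stood at -0.02 ± 0.10 and Angptl4 at -0.01 ± 0.15. These 3 lay within 2 spot errors of 0. The adenylate kinase gene Ak4 had a mean of -0.07 over probes that disagreed: a bright one at 0.13 ± 0.06, which read 1.68 and 1.66 in the control and 1.81 and 1.83 at the low dose, and a dimmer one at -0.28 ± 0.09. Collagen prolyl hydroxylase genes, which also respond to hypoxia, had P4ha1 at 0.20 ± 0.07 and P4ha2 at 0.12 ± 0.06. P4ha3, from 1 dim spot, stood on the other side at -0.83 ± 0.35.

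HIF binds a core that contains ACGTG or GCGTG, and the promoters of the members of both lists were searched for both forms. RefSeq promoters (build GRCr8) were available for 35 of the measured members. The motif ACGTG on either strand was found in the 250 bases upstream of the start in 18 of the 35 (51.4%), against 23.01% of 8800 measured genes and 16.6% of 33469 promoters in all. Among members above 0 it was found in 14 of 29, and among those not above 0 in 4 of 6, Hif1a, Pfkfb3, Angptl4 and Higd1a. For GCGTG the shares over the same sets as for ACGTG were 48.6%, 45.2% and 25.9%. In the 2 windows given as examples, written 5′ to 3′ on the gene's strand, capitals mark ACGTG on either strand, and CACGTG holds it on both strands at overlapping positions. Ankrd37 lies at chr16:53001257-53001506 (plus strand) and Bnip3 at chr1:203154963-203155212 (minus strand):

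Ankrd37: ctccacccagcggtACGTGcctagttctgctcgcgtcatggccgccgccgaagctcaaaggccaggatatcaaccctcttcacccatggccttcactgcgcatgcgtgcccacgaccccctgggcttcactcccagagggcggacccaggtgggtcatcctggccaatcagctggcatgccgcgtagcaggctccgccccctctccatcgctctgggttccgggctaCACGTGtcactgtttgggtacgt
Bnip3: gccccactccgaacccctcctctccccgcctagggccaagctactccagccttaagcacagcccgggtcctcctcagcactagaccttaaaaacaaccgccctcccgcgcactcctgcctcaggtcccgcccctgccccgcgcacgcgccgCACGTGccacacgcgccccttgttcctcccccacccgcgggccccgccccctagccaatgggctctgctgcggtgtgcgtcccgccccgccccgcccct

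Slc2a1 held 1 match of ACGTG and 3 of GCGTG, while the windows of Vegfa, Adm, Wsb1 and Pkm held neither form. Those of Pdk1, Pfkp and Egln1 held GCGTG only. A match describes the letters of the window only, and the share over lists of hypoxia genes does not bear on their low-dose ratios.

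**Figure D3:**
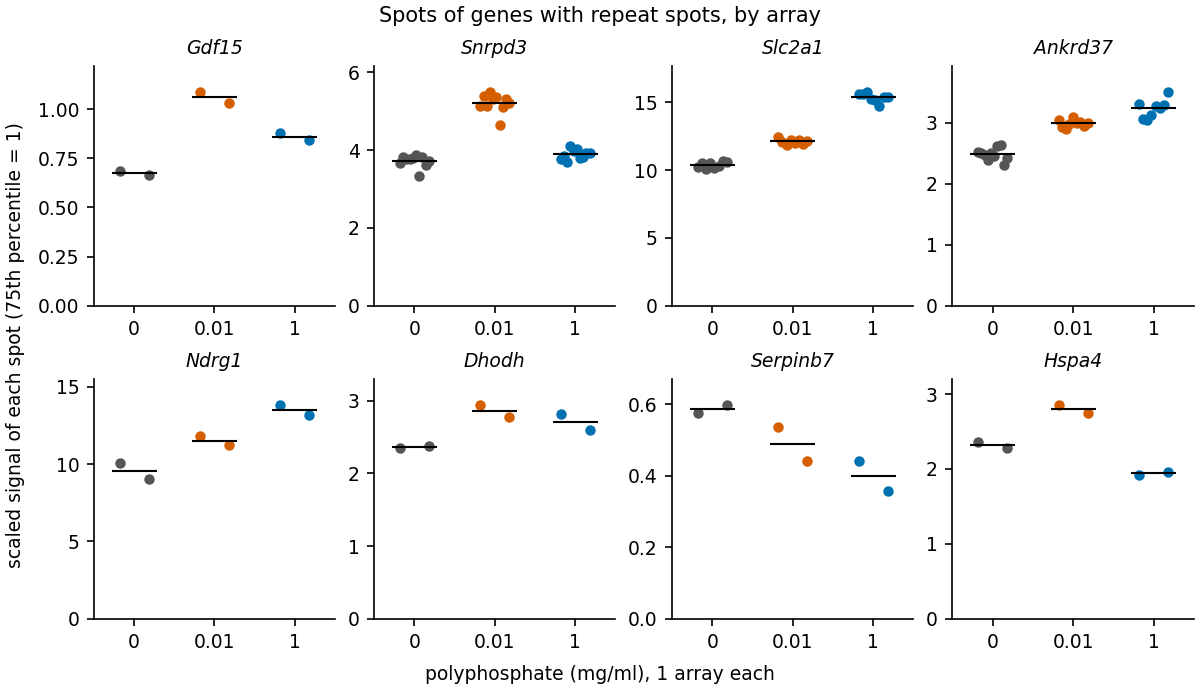
Scaled signal of every spot (vertical axis, 75th percentile of the array = 1) of 8 genes with repeat spots, for 0, 0.01 and 1 mg/ml polyphosphate, 1 array each; black bars are means over spots. The low-dose spots lie apart from the control spots in all 8 genes, above them in 7 and below them in Serpinb7. For all but Slc2a1 this was a condition of the rule that named the gene.

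Stress genes were led by Gdf15, which codes for a secreted cytokine raised by the integrated stress response and by p53. Its spots read 0.688 and 0.664 in the control, 1.09 and 1.03 at the low dose, and 0.879 and 0.843 with the high dose. The low-dose spots were the highest of the 3 arrays and did not overlap the others, with a ratio of 0.65 ± 0.07. Gdf15 was the only gene past 1.2-fold among 12 measured genes of the integrated stress response, which attenuates general translation and induces ATF4 and CHOP. Ddit3, the CHOP gene, stood at 0.22 ± 0.05, Ppp1r15a at 0.12 ± 0.06, Trib3 at 0.11 ± 0.06 and Atf4 at 0.06 ± 0.02. Their values at the high dose were 0.72, 0.60, 0.63 and 0.20. The list had 10 of 12 members above 0 (83.3%, against 50.4% of all measured genes and 54.7% of bright ones). Its median was 0.06, against 0.28 at the high dose.

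Genes of p53 and growth arrest had 9 of 14 members above 0 (64.3%) and a median of 0.08. The share above 0 was 50.4% over all measured genes and 54.7% over bright ones. The cell cycle inhibitor gene Cdkn1a, a main p53 target, stood at -0.01 ± 0.04, and Fas at 0.41 ± 0.36 from 1 dim spot. Genes of cholesterol synthesis had 17 of 23 above 0 (73.9%) and a median of 0.06. Cyp51, Stard4, Sqle and Pmvk stood between 0.11 and 0.16, and the squalene synthase gene Fdft1 at -0.11 ± 0.05. Of these lists, Tm7sf2, a sterol reductase gene at 0.37 ± 0.22, was the only other gene past 1.2-fold.

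Genes of ribosome making stood on the lower side. Of 22 measured genes for nucleolar proteins and RNA polymerase I subunits, 4 were above 0 (18.2%). The share was 50.4% over all measured genes and 54.7% over bright ones. The median of the list was -0.06, with -0.08 at the high dose. By more than 2 spot errors 6 were below 0 (4.57% of all measured genes, dim ones included) and none above. Of 18 bright members with repeat spots, 7 had every low-dose spot below every control spot (14.1% of all such genes) and none the reverse. The largest were Polr1b, a polymerase I subunit gene, at -0.22 ± 0.10 and Nhp2, a gene of small nucleolar ribonucleoproteins, at -0.18 ± 0.06. The abundant nucleolar genes Npm1 (nucleophosmin) and Ncl (nucleolin) each stood at -0.13 ± 0.05, and none of the 22 was past 1.2-fold. The 80 ribosomal protein genes themselves had a median of 0.02 with 53 above 0 (66.25%, against 54.7% of bright genes). Without the filter on dim probes their median less that of all genes was -0.01.

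Histone genes, whose replicative members are made in S phase, had a median of -0.07 over 35 measured genes. Above 0 were 14 (40%, against 50.4% of all measured genes and 54.7% of bright ones). By more than 2 spot errors 10 were below 0 (4.57% of all measured genes, dim ones included) and none above. Of 16 bright members with repeat spots, 9 had every low-dose spot below every control spot (14.1% of all such genes) and none the reverse. With normexp background correction the median less that of all genes was -0.03. The linker histone gene H1f1 read 0.176 and 0.203 in the control, 0.146 and 0.147 at the low dose, and 0.132 and 0.137 with the high dose, a ratio of -0.37 ± 0.13. Bright members on the lower side were Hist2h3c2 and Hist1h2ail1, at -0.17 each, and H1f4 at -0.15 ± 0.05. H4c14 stood at -0.27 ± 0.12 over a dim probe at -0.39 ± 0.22 and a bright probe at -0.14 ± 0.07. The replication genes, many of them helicase, polymerase and nucleotide-supply genes, had a median of -0.02 over 35 members, against -0.20 with the high dose. Their clearest low-dose member with 10 spots, the flap endonuclease gene Fen1, stood at -0.07 ± 0.02 with -0.32 at the high dose. Histone probes share sequence between family members, so their values are not independent.

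Oxidative phosphorylation genes, which code for the respiratory complexes, had 58 of 74 members above 0 (78.4%). The share was 50.4% over all measured genes and 54.7% over bright ones. The median of the list was 0.03, against -0.01 at the high dose. By more than 2 spot errors 11 were above 0 (4.27% of all measured genes, dim ones included) and 1 below. Of the 74 members 72 were bright. Of 69 bright members with repeat spots, 22 had every low-dose spot above every control spot and 6 the reverse. The shares over all such bright genes were 18% and 14.1%. The median less that of all genes was 0.01 both under quantile scaling and without the filter on dim probes. Ndufv2, a complex I subunit gene with 10 spots, stood at 0.09 ± 0.02. Cox7c, a complex IV subunit gene, at 0.30 ± 0.10 from 1 spot, was the only member past 1.2-fold. Atp5g3, an ATP synthase gene, stood on the other side at -0.16 ± 0.04.

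**Figure D4:**
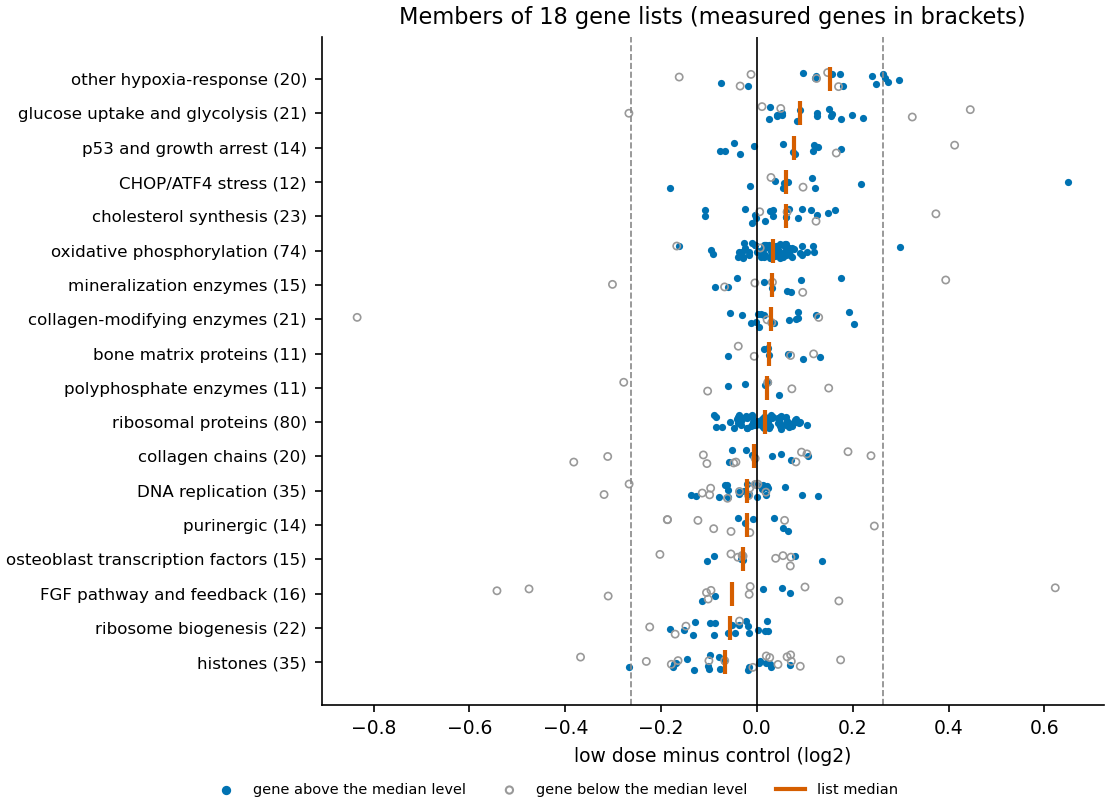
Log2 ratio of low dose to control (horizontal axis) of the measured members of 18 gene lists; filled blue points are bright genes, open grey points dimmer ones, orange bars list medians and dashed lines 1.2-fold. Medians run from -0.07 for histones to 0.15 for the other hypoxia-response genes.

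Among 3 lists of bone formation genes no bright member was past 1.2-fold. Beside their counts above 0, the share was 50.4% over all measured genes and 54.7% over bright ones. The 15 osteoblast transcription factor genes had a median of -0.03 with 6 above 0, and the homeobox gene Msx2 stood at -0.10 ± 0.05. Among 11 bone matrix protein genes, with a median of 0.02 and 8 above 0, no member lay more than 2 spot errors from 0. Omd, the gene of osteomodulin, stood at 0.13 ± 0.08 and Fn1 (fibronectin) at 0.10 ± 0.06. Mineralization enzymes and phosphate carriers had a median of 0.03 with 9 of 15 above 0, and -0.01 less that of all genes without the filter on dim probes. There Stc1, the gene of the phosphate-regulating hormone stanniocalcin, stood at 0.17 ± 0.07, with 0.35 at the high dose. Enpp1, which makes the mineral inhibitor pyrophosphate, stood at 0.01 ± 0.03 over 9 spots. Past 1.2-fold were 2 dim members, the glycosyltransferase gene Galnt3 at 0.39 ± 0.11 and the phosphate exporter gene Xpr1 at -0.30 ± 0.12.

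Collagen chain genes had a median of -0.01 with 9 of 20 above 0, and the sign of the median less that of all genes turned under 3 alternatives (0.00329 to 0.0131). Col1a2 stood at 0.03 ± 0.05 and Col5a2 at -0.05 ± 0.05, and the 2 members past 1.2-fold, Col17a1 and Col8a1, were dim. Enzymes that modify collagen had 16 of 21 above 0 (76.2%) and a median of 0.03. The share above 0 was 50.4% over all measured genes and 54.7% over bright ones. P3h2, a prolyl 3-hydroxylase gene, stood at 0.19 ± 0.07, and P4ha3, from 1 dim spot, at -0.83 ± 0.35. Enzymes that cut or make polyphosphate and inositol pyrophosphates had a median of 0.02 over 11 members. Ppa1, the cytosolic pyrophosphatase gene, stood at 0.02 ± 0.03 over 10 spots and Prune1, a short-chain exopolyphosphatase gene, at -0.28 ± 0.20. Of 14 purinergic genes, which sense or cut extracellular nucleotides, none was past 1.2-fold or more than 2 spot errors from 0, and the median was -0.02.

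The FGF pathway list had a median of -0.05 with 6 of 16 above 0 (37.5%, against 50.4% of all measured genes). Its members past 1.2-fold were all dim. The feedback inhibitor genes Spred3, Spry2 and Spry4 stood at -0.54 ± 0.26, -0.48 ± 0.26 and -0.31 ± 0.15, and Spred2 at 0.62 ± 0.36 from 1 spot. Spry2 read 0.0341 and 0.0400 in the control and 0.0197 and 0.0358 at the low dose, so its spots overlapped. With repeat-spot probes alone the median of the list less that of all genes turned to 0.03. Another 27 lists of at least 5 measured genes, among them Wnt, BMP, integrin and interferon genes, had medians from -0.07 to 0.08.

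Single bright genes with repeat spots that stood apart included Snrpd3, which codes for a core protein of spliceosomal ribonucleoproteins. Its 10 spots read 3.34 to 3.89 (median of 3.76) in the control, 4.64 to 5.50 (median of 5.27) at the low dose and 3.69 to 4.10 (median of 3.88) with the high dose. The low-dose spots lay above all others, with a ratio of 0.49 ± 0.03. The name is that of the files and was not matched through RefSeq, and the probe lies at chr1:45126582-45126641 in rn4. Whether this place is the Snrpd3 gene or a copy of it was not tested. The probe read:

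Snrpd3: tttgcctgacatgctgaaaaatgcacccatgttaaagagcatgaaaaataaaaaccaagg

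The chaperone gene Hspa4 read 2.36 and 2.27 in the control, 2.86 and 2.75 at the low dose, and 1.92 and 1.95 with the high dose. Its ratio was 0.27 ± 0.06 at the low dose and -0.26 with the high, so the doses lay on opposite sides of the control. The pyrimidine synthesis gene Dhodh read 2.35 and 2.37 in the control, 2.94 and 2.78 at the low dose, and 2.82 and 2.59 with the high dose. On the lower side, Fitm2, which codes for a lipid droplet protein, stood at -0.26 ± 0.06 and -0.28 ± 0.08 with its 2 probes. Its bright probe read 1.84 and 1.75 in the control and 1.47 and 1.53 at the low dose. Serpinb7, a protease inhibitor gene, read 0.576 and 0.598 in the control, 0.536 and 0.441 at the low dose, and 0.442 and 0.357 with the high dose. The ratios of Capn8 and Sema6c, 0.30 and -0.28, came from a dim probe each: their bright probes stood at 0.08 and -0.11.

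Rpph1 had the largest bright ratio, 1.05 ± 0.08, from 1 spot per array that gave a scaled signal of 3.01 in the control, 6.22 at the low dose, and 3.48 with the high dose. The files name the probe Rmrp, and the RefSeq table gives its accession the symbol Rpph1; both are catalytic RNAs that process other RNAs. The probe is printed because the names disagree:

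Rpph1: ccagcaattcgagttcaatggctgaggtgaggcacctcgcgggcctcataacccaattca

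Of the 75 bright single-spot genes past 1.2-fold, 14 had a probe with at least 70% GC and 61 had less. Over all bright probes, of 76 with at least 70% GC 19.7% were past 1.2-fold, with an SD of 0.24 and a median of -0.11. Of 8415 with less GC, 0.963% were, with an SD of 0.09. The GC-rich Tpbgl probe stood at 0.79 ± 0.07, with -0.11 at the high dose, and the unnamed GC-rich probe A_64_P013719 at -0.64 ± 0.08, with -0.76 at the high dose. The very bright unnamed probe A_64_P119127, with 55% GC, stood at -0.67 ± 0.07, with -0.52 at the high dose. Named single-spot genes with less GC included Metrn, which codes for a secreted neurotrophic factor, at -0.64 ± 0.09, with -0.23 at the high dose. Retreg3, an endoplasmic reticulum gene, stood at -0.47 ± 0.10 and the deubiquitinase gene Usp8 at -0.44 ± 0.11. Swi5, a recombination gene, stood at 0.34 ± 0.07, the helicase gene Dhx9 at 0.30 ± 0.09 and the receptor gene Ptk7 at -0.32 ± 0.08. The part of base composition in these ratios was not tested.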

How the data were processed

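Total RNA of 1 culture per group was labelled with Cy3 and hybridised to 1 Agilent rat array each. Spot intensity, per the file headers, was extracted with Agilent Feature Extraction 10.7.3.1, with coordinates in rn4. The authors deposited the processed signal, an intensity after background subtraction and detrending of each array, with no scaling between arrays. The 0 or 1 flags for spots well above background and for outliers were deposited in the same files by the authors. The authors also deposited a series table of a ratio (how it was made: not given in these sources). Checked against the scanner values, each value equalled the scanner's processed signal divided by a constant of its array (849 low, 823 control, 823 high, largest deviation 0.000123%), so it is linear and uncentred, with column medians of 0.0731, 0.0737 and 0.0734.

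Each processed signal was divided by the 75th percentile of its array and taken to log2, with Python 3.11.15 and pandas 2.3.3. Outlier spots (368 low, 426 control) were left out, repeat spots averaged, and a probe was measured where at least 50% of its spots were well above background on both arrays (16885 of 30367 probes). No spot was saturated. A gene is the mean of its measured probes. Symbols came through the RefSeq accession for 18883 probes (62.2%) and otherwise from the files. The spot error pools the SD between repeat spots in 20 bins of level. Lists are described by counts and medians beside those of all genes. The calculation was tested on simulated data. limma 3.58.1 under R 4.3.3 gave the normexp alternative.

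Genes named by rule were the up to 15 highest and 15 lowest bright genes past 1.2-fold with repeat spots that did not overlap, up to 4 members of a list past 1.2-fold in each direction or else the 2 furthest from 0, and a few fixed genes; other members were named as examples after their values were seen. The gene lists, the fold and the members were chosen with earlier results of these data known, and the Hmgb1-like set, the probe families and the promoter motifs after seeing the values. Genes not well above background on both arrays were left out. Alternatives were the authors' deposited table, quantile and spike-in scaling, normexp, stricter and no filters on dim probes, flagged spots kept, the brightest probe alone and repeat spots alone. Some list members are not reported here.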

Additional observations from a re-analysis of the deposited data

How the results depend on the processing

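No paired analysis was possible because each group holds 1 array, and for the same reason no replicate could be left out. Values are on the log2 scale, and list medians are less the median of all genes. Centring on spike-ins moved that median to 0.146 and the counts past 1.2-fold to 1942 higher and 284 lower of the measured genes (87.2% higher in place of 44.0%) and 491 and 10 of the bright ones (98.0% in place of 58.2%). With normexp background correction 89 measured genes were higher and 182 lower, with 23 bright genes lower. Without a filter on dim probes the counts were 2363 and 3373, and 349 and 481 bright. Repeat spots alone left 198 and 231, and 10 and 2 bright.

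The median of the 17 probes in the Hmgb1-like groups stayed between 0.488 and 0.513 under the 8 alternatives that gave one. None came from repeat spots, since these probes have 1 spot. List medians that moved by more than their spot error were, for oxidative phosphorylation, 0.0123 (quantile), 0.0462 (normexp) and 0.00852 (no filter), and for ribosomal proteins 0.00566 (quantile), 0.0290 (normexp) and -0.00675 (no filter, a turn of sign). Histones moved to -0.0263 (normexp) and -0.0393 (no filter). Without the filter the stress response list stood at 0.0331, cholesterol synthesis at 0.0370, ribosome biogenesis at -0.0795 and mineralization at -0.00852, which turned its sign. The glycolysis list stood at 0.0525 with the brightest probe alone and the FGF list at 0.0284 with repeat spots alone. The other 148 list values moved by no more than their spot error, but 5 of them, from medians near 0, turned sign: collagen chains (0.00798 without the filter, 0.0131 with the brightest probe, 0.00329 with repeat spots), bone matrix (-0.00780) and polyphosphate enzymes (-0.000517), both without the filter. The authors' deposited table moved no list beyond its error. Of named genes past 1.2-fold, Acvr1 turned to -0.00590 under normexp, and Aldoc to -0.26 and Pfkfb3 to 0.11 without the filter, where dim probes enter the mean; the cause for Acvr1 was not tested. Probes near background limit the dim genes, and 1 array per group limits everything else.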
